A study of Mus musculus with 12 samples.

Results

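Formative and primed pluripotency in the mouse epiblast is marked by a small set of genes, of which 9 were followed here in cultured stem cells: Otx2, Zic2, Zic5, Pou3f1, Sox3, Etv4, Etv5, Fgf5 and Cdh2. They were picked by gene symbol, and all 9 were found among the 19938 genes that had a probe set of their own on the array. Each was read by its brightest probe set, that is, the set with the highest mean over the 12 arrays. The cells were R1, an established mouse embryonic stem cell line, infected with a scrambled control or with a knockdown of Set, a histone chaperone and inhibitor of the phosphatase PP2A. Total RNA was hybridised to a 1-colour Affymetrix gene array, 1 array per sample and 2 arrays in each of 6 groups. RA KD1, RA KD2 and RA Scrambled were the 2 knockdown lines and the control after 4 days in 1 µM retinoic acid with 10% fetal bovine serum and no leukemia inhibitory factor. ESC KD1, ESC KD2 and ESC Scrambled were the same lines growing with 15% serum and 1000 U/ml of that factor, without retinoic acid. Retinoic acid, serum and the factor therefore changed together between RA and ESC, and their shares cannot be told apart. KD1, KD2 and the control were 1 line each, so a difference between lines cannot be told apart from an effect of the knockdown. Each p-value rests on how far arrays of 1 line lie from each other.

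Naive embryonic stem cells resemble the epiblast before implantation, and they pass through a formative state and then a primed state before they can form the germ layers. OTX2, a homeodomain factor, starts this transition, and POU3F1, ZIC2, ZIC5 and SOX3 are transcription factors of the formative and primed epiblast that also act in early neural tissue. ETV4 and ETV5 are ETS factors whose transcription follows FGF and ERK signalling, FGF5 is a secreted ligand and a classic marker of the epiblast after implantation, and CDH2 (N-cadherin) is an adhesion molecule of primed, neural and mesenchymal cells. Retinoic acid with no leukemia inhibitory factor drives stem cells out of pluripotency, towards several lineages depending on the culture. These arrays hold the beginning and the end of 4 days and no time between.

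Promoter sequence was printed for the 4 of the 9 genes with an entry in the RefSeq promoter table (build GRCm38.p6), because Otx2, Zic5 and Etv5 moved together in the results while Fgf5 did not move with them. Each line gives the 250 bases upstream of the gene's outermost listed start, 5′ to 3′ on the gene's strand, and capitals mark a match to any of 6 short motifs searched on both strands.
Otx2, chr14:48667645-48667894, minus strand: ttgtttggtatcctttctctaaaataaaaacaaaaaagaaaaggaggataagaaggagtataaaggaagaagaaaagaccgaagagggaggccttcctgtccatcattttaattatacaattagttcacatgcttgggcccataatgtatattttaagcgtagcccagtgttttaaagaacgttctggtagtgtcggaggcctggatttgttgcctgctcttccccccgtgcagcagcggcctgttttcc
Zic5, chr14:122465659-122465908, minus strand: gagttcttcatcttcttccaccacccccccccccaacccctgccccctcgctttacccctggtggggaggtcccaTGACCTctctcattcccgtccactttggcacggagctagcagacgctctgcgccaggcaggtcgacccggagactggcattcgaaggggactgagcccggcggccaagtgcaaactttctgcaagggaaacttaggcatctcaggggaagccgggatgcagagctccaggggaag
Etv5, chr16:22439571-22439820, minus strand: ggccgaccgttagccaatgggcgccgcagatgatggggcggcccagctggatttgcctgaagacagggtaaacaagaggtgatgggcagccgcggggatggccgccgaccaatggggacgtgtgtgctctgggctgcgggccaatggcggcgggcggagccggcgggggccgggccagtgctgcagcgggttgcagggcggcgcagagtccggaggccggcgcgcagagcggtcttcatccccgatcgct
Fgf5, chr5:98253934-98254183, plus strand: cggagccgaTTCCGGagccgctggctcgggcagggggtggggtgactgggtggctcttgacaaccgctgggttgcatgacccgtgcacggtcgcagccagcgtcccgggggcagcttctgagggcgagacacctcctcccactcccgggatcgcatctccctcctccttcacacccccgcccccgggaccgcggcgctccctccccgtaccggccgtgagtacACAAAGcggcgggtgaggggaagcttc

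The motifs were the ETS core CCGGAA, the OTX core GGATTA, the octamer ATGCAAAT, the SOX core ACAAAG, the retinoic acid receptor core AGGTCA and the ZEB and SNAIL E-box CAGGTG. Zic5 held 1 receptor core on its opposite strand, which 14% of the 32851 listed promoters also held. Fgf5 held 1 ETS core on its opposite strand and 1 SOX core, found in 12% and 16.5% of promoters. The OTX core, the octamer and the E-box were found in 6.25%, 1.6% and 17.2% of promoters. None of these letters stood in the printed Otx2 and Etv5 windows. Over all 8 windows of starts listed for the 4 genes, 1 that is not printed held the OTX core. Base composition differed among the 4 windows: GC was 42.0% in Otx2, 62.4% in Zic5, 71.2% in Etv5 and 70.8% in Fgf5, against a median of 52.4% over all promoters. CpG pairs numbered 6, 11, 27 and 24 in the same order, against a median of 6.

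Before any comparison, the labels were checked against the arrays. The bright Set probe set 10470893, which is shared with BC085271, read 11.28 and 11.16 log2 units in RA KD1, 11.70 and 11.99 in RA KD2, and 12.27 and 12.29 in RA Scrambled. The ESC values were 12.13 and 11.94 for KD1, 12.15 and 11.87 for KD2, and 12.93 and 12.71 for Scrambled. Every knockdown array lay below both scrambled arrays of its labelled state by this set. The dimmer sets 10470905 and 10470907, annotated to Set alone, overlapped between knockdown and control arrays in both states. By 10470905 RA KD1 read 6.61 and 6.72 against 6.68 and 6.45 in RA Scrambled, and ESC KD2 replicate 1 read 8.54 against 8.82 and 8.39 in ESC Scrambled. By 10470907 RA KD1 read 6.35 and 6.04 against 5.83 and 6.09 in RA Scrambled, and ESC KD1 read 6.93 and 6.69 against 7.35 and 6.90 in ESC Scrambled. A pair of arrays, however, resembled the state opposite to its label. The library labelled ESC KD2 replicate 2 correlated at 0.968 on average with the other ESC arrays and at 0.989 with the RA arrays over all probe sets, and the library labelled RA KD2 replicate 2 correlated at 0.967 with the other RA arrays and at 0.989 with the ESC arrays. Results are therefore given for all 12 arrays as labelled and for the 10 arrays without this pair. With 10 arrays KD2 is 1 array per state and its spread is taken from the other groups. Values are log2 intensities throughout, a call is an adjusted p below 0.05 in limma after Benjamini-Hochberg adjustment over all 19938 genes, and array medians lay between 7.17 and 7.24.

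Leaving the stem cell state was accompanied by lower Otx2, Zic2, Zic5, Etv4 and Etv5 and by higher Cdh2, while Fgf5 and Sox3 moved little in the control line. In the 10 arrays that matched their labels, the 5 RA and 5 ESC arrays overlapped for Zic2 and Fgf5. They were apart for the other genes, in Sox3 only just (RA up to 8.53, ESC from 8.56). The pair was left out for resembling the opposite state, which favours such separation. How many of all genes were apart was not counted, and 42.6% were called in the control line on these arrays. Fewer cells expressing a gene and less RNA per cell cannot be told apart in these bulk samples.

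Otx2 (probe set 10419356, chromosome 14 from 48656781 to 48667644 in GRCm38.p6) read 6.63 and 6.58 in RA KD1, 7.13 in RA KD2 replicate 1, and 6.99 and 7.12 in RA Scrambled. Its ESC values were 9.81 and 11.34 in ESC KD1, 10.48 in ESC KD2 replicate 1, and 11.03 and 11.84 in ESC Scrambled. All 5 of these RA arrays lay below the lowest of the 5 ESC arrays by over 2 log2 units. The library labelled RA KD2 replicate 2 read 11.54 and the library labelled ESC KD2 replicate 2 read 7.21. The first lay within the range of the 5 ESC arrays, and the second lay just above the highest of the 5 RA arrays and below every ESC array. In the control line Otx2 stood at 4.81% of its ESC intensity in RA, a log2 change of -4.38 (SE 0.42, adjusted p = 4.75e-05, limma on 10 arrays). On 12 arrays the same change had an SE of 1.38 and an adjusted p of 0.0596, which missed the threshold.

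Zic2 and Zic5 are neighbours on chromosome 14 (122475384 to 122480328 and 122459160 to 122465658) and encode zinc-finger factors. Zic2 (probe set 10417176) read 7.97 and 7.86 in RA KD1, 9.22 in RA KD2 replicate 1, and 8.57 and 9.02 in RA Scrambled. Its ESC values were 8.83 and 9.54 in KD1, 10.06 in KD2 replicate 1, and 10.60 and 11.01 in Scrambled, so that RA KD2 replicate 1 lay above ESC KD1 replicate 1. The libraries labelled RA KD2 replicate 2 and ESC KD2 replicate 2 read 10.52 and 9.45. Zic2 fell by 2.01 on the log2 scale in RA Scrambled relative to ESC Scrambled, to 24.8% of the ESC intensity, with 12 arrays (SE 0.43, limma adjusted p = 0.0371) and with 10. Zic5 (probe set 10376241) read 7.46 and 7.54 in RA KD1, 8.55 in RA KD2 replicate 1, and 7.87 and 8.34 in RA Scrambled. The ESC values were 9.50 and 9.90 for KD1, 10.65 for KD2 replicate 1, and 11.01 and 11.72 for Scrambled. RA and ESC arrays were apart, and within each state the control lay above KD1. The oppositely placed pair read 11.31 (labelled RA KD2) and 8.81 (labelled ESC KD2). Zic5 fell by 3.26 in RA Scrambled, to 10.5% of the ESC Scrambled intensity, with 12 arrays (SE 0.83, limma adjusted p = 0.0439) and with 10. The other, dimmer Zic5 probe set gave -0.70 for the same comparison on 10 arrays. The 10 annotated sets nearest in number to the brighter set belong to genes on chromosome 11. The genomic target of the brighter set is not given in the sources used here.

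Pou3f1 and Sox3, a POU factor and a SOXB1 factor, varied over narrow ranges. Pou3f1 (probe set 10507905, chromosome 4 from 124657646 to 124660655) read 7.95 and 8.28 in RA KD1, 8.29 in RA KD2 replicate 1, and 7.92 and 8.08 in RA Scrambled. The ESC values were 8.73 and 8.37 for KD1, 9.28 for KD2 replicate 1, and 8.64 and 8.52 for Scrambled. The highest of the 12 arrays was thus ESC KD2 replicate 1. In the control line Pou3f1 fell by 0.58 (SE 0.17, adjusted p = 0.0203, limma on 10 arrays). This call was lost without RA Scrambled replicate 1 (adjusted p = 0.124) or without ESC Scrambled replicate 1 (adjusted p = 0.0763). Sox3 (probe set 10604837, chromosome X from 60891366 to 60893430) read 8.35 to 8.53 over the 5 RA arrays and 8.56 to 8.85 over the 5 ESC arrays. All 12 arrays lay within 0.50 log2 units. Its change of -0.17 in the control line was not called (SE 0.13, adjusted p = 0.338, limma on 10 arrays).

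The ETS factors showed an almost even ESC level of Etv5 and a spread in Etv4. Etv5 (probe set 10363901, chromosome 16 from 22381313 to 22439570) read 8.72 and 8.09 in RA KD1, 10.03 in RA KD2 replicate 1, and 9.0 and 9.76 in RA Scrambled. In ESC the 5 arrays lay between 12.17 and 12.35, with a median of 12.28. The RA arrays thus spread over nearly 2 log2 units, with KD1 lowest, while the ESC arrays hardly differed. The libraries labelled RA KD2 replicate 2 and ESC KD2 replicate 2 read 12.19 and 10.21. Etv5 fell by 2.95 in RA Scrambled relative to ESC Scrambled, to 13.0% of the ESC intensity, with 12 arrays (SE 0.76, limma adjusted p = 0.0444) and with 10. Etv4 (probe set 10391490, chromosome 11 from 101769747 to 101785310) read 7.22 and 6.89 in RA KD1, 7.91 in RA KD2 replicate 1, and 7.03 and 7.68 in RA Scrambled. The ESC values were 10.72 and 10.16 for KD1, 10.45 for KD2 replicate 1, and 9.98 and 9.17 for Scrambled. Here the 3 knockdown arrays that matched their ESC label lay above both control arrays. In the control line Etv4 fell by 2.21 (to 21.6%), called on 10 arrays (SE 0.31, limma adjusted p = 0.000425) and not on 12 (SE 0.83, limma adjusted p = 0.0881).

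Fgf5, the ligand, did not follow the other genes. Its probe set 10523490 (chromosome 5 from 98254184 to 98277033) read 7.94 and 7.95 in RA KD1, 8.26 in RA KD2 replicate 1, and 8.46 and 8.78 in RA Scrambled. The ESC values were 7.88 and 7.97 for KD1, 8.49 for KD2 replicate 1, and 8.35 and 8.36 for Scrambled. The 4 KD1 arrays were the lowest of all 12 in either state, and the states overlapped. The control line differed by 0.27 between RA and ESC (SE 0.13, adjusted p = 0.148, limma on 10 arrays), with an interval of -0.04 to 0.57.

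Cdh2 ran opposite to the transcription factors. Its probe set 10457644 (chromosome 18 from 16588877 to 16809246) read 10.84 and 10.47 in RA KD1, 11.48 in RA KD2 replicate 1, and 11.53 and 11.51 in RA Scrambled. The ESC values were 7.31 and 6.74 for KD1, 9.26 for KD2 replicate 1, and 8.18 and 7.29 for Scrambled. Among the ESC arrays that matched their label, KD2 replicate 1 was the highest and KD1 replicate 2 the lowest. The oppositely placed pair read 7.48 (labelled RA KD2) and 11.50 (labelled ESC KD2). In the control line Cdh2 rose 13.8-fold in RA (log2 3.79, SE 0.29 and adjusted p = 1.21e-05 on 10 arrays, SE 1.14 and adjusted p = 0.0543 on 12, both limma).

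**Figure D1:**
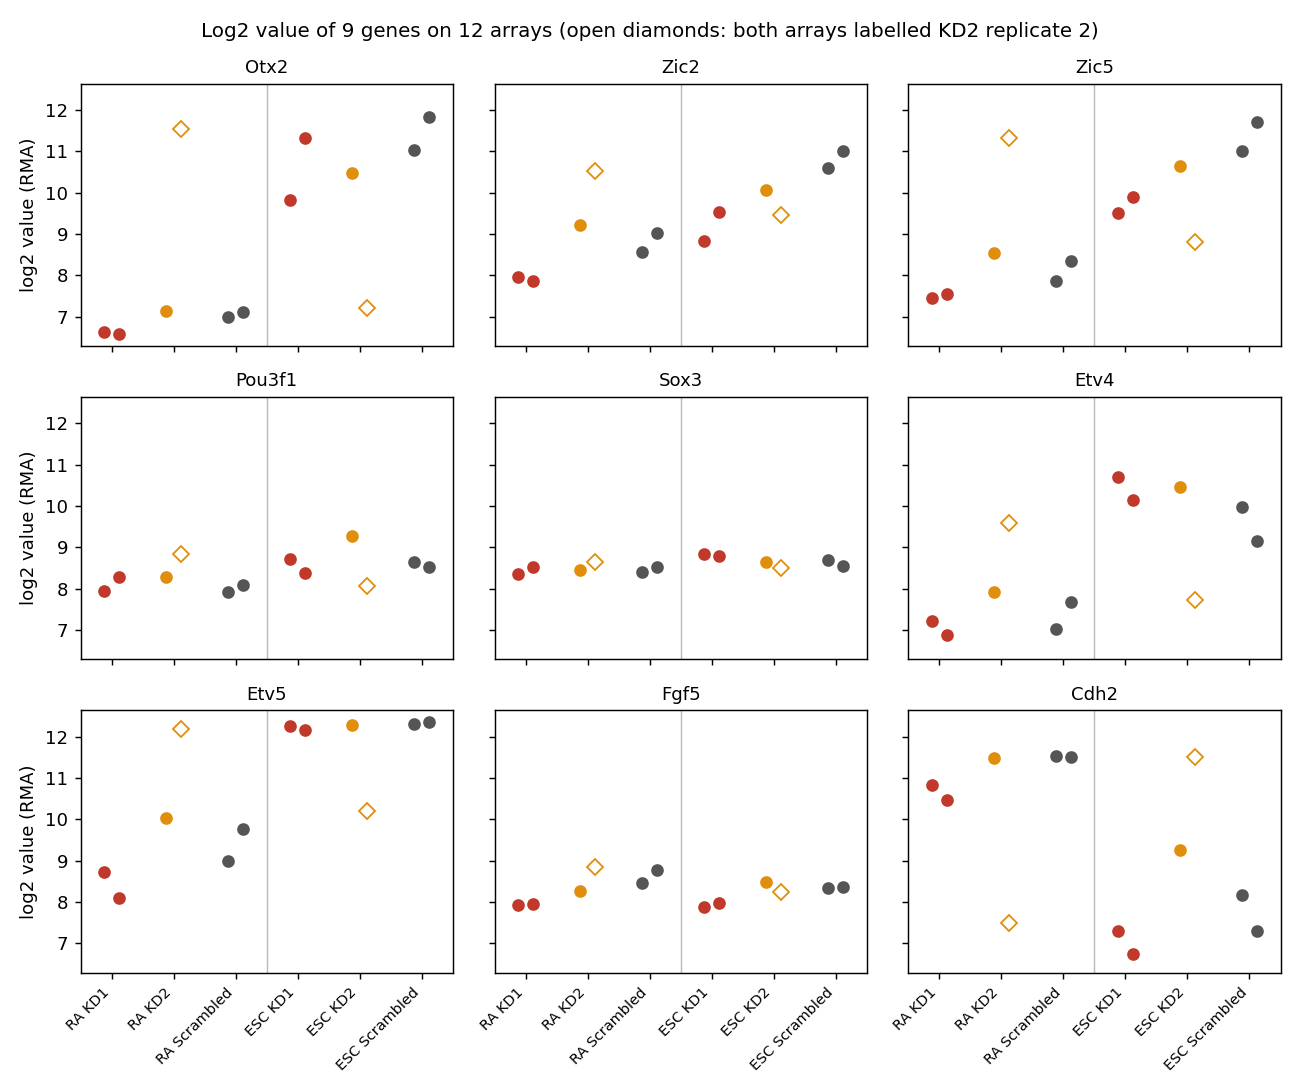
Log2 intensity of each of the 9 genes (1 panel per gene, vertical axis) on each array, grouped along the horizontal axis as RA KD1, RA KD2, RA Scrambled, ESC KD1, ESC KD2 and ESC Scrambled. Open diamonds are the libraries labelled KD2 replicate 2, which resembled the opposite state over all probe sets, for example with 11.54 for Otx2 under the RA label. Not every panel shows this: for Zic2 the library under the ESC label read 9.45, within the range of the other ESC arrays. Otx2, Zic5, Etv4 and Etv5 are lower in RA, Cdh2 is higher in RA, and Sox3 and Fgf5 span less than 1 log2 unit.

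Counted over the control line, 3 of the 9 genes fell and 0 rose with 12 arrays (Zic2, Zic5 and Etv5), where 13.8% of all genes were called (5.66% fell, 8.14% rose). On 10 arrays 6 fell and 1 rose, where 42.6% of all genes were called (20.8% fell, 21.8% rose). The median change of the 9 was -2.01, against -0.04 over all genes. The count with 12 arrays depended on single libraries: it was 0 without any 1 of the 8 Scrambled or KD1 arrays, and 5 or 6 without any 1 of the 4 KD2 arrays.

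In the KD1 line Otx2, both ETS factors and both ZIC factors fell as well, and Cdh2 rose. On 10 arrays RA KD1 relative to ESC KD1 gave Otx2 -3.97 (SE 0.42), Etv5 -3.81 (SE 0.25), Etv4 -3.38 (SE 0.31), Zic5 -2.20 (SE 0.25) and Zic2 -1.27 (SE 0.25), all called, and Cdh2 rose by 3.63 (SE 0.29). Sox3 also passed (-0.39, SE 0.13, adjusted p = 0.0353 in limma), but it missed the threshold without any 1 of the 4 KD1 arrays (adjusted p of 0.0638 to 0.216). Pou3f1 (-0.43, adjusted p = 0.0661) and Fgf5 (0.02, interval -0.29 to 0.32) were not called, and Pou3f1 passed with the replicate number as a block within each state (adjusted p = 0.00751). Thus 6 genes fell and 1 rose, where 41% of all genes were called (20.8% fell, 20.3% rose). With 12 arrays only Etv4 and Etv5 were called, where 11.3% of all genes were (4.26% fell, 7.02% rose). That count was 0 without any 1 of the KD1 arrays, 1 without any 1 Scrambled array, and 4 or 6 without any 1 KD2 array.

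In KD2 the comparison rested on 1 array per state once the oppositely placed pair was left out. Fitting the replicate number as a block then shifted the KD2 values by replicate differences of the other lines alone. Otx2 differed by -3.35 (SE 0.60), Etv4 by -2.54 (SE 0.44), Etv5 by -2.25 (SE 0.35), Zic5 by -2.10 (SE 0.35), Pou3f1 by -0.98 (SE 0.24) and Cdh2 by 2.23 (SE 0.40), all called by limma on 10 arrays. These were 5 genes that fell and 1 that rose, where 20.5% of all genes were called (9.46% fell, 11% rose). Zic5 was not called by its dimmer set (-0.37, adjusted p = 0.178), which leaves 4 that fell. Zic2 (-0.85, adjusted p = 0.128), Sox3 (-0.19) and Fgf5 (-0.23) were not called, and Zic2 passed with the replicate number as a block within each state (-1.04, adjusted p = 0.00597). With all 12 arrays as labelled, 0 of the 9 were called in limma, 0 at an unadjusted p below 0.05, and 0% of all genes were called. The labelled means of the states then nearly met or crossed, as for Otx2 (0.49) and Cdh2 (-0.90).

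**Figure D2:**
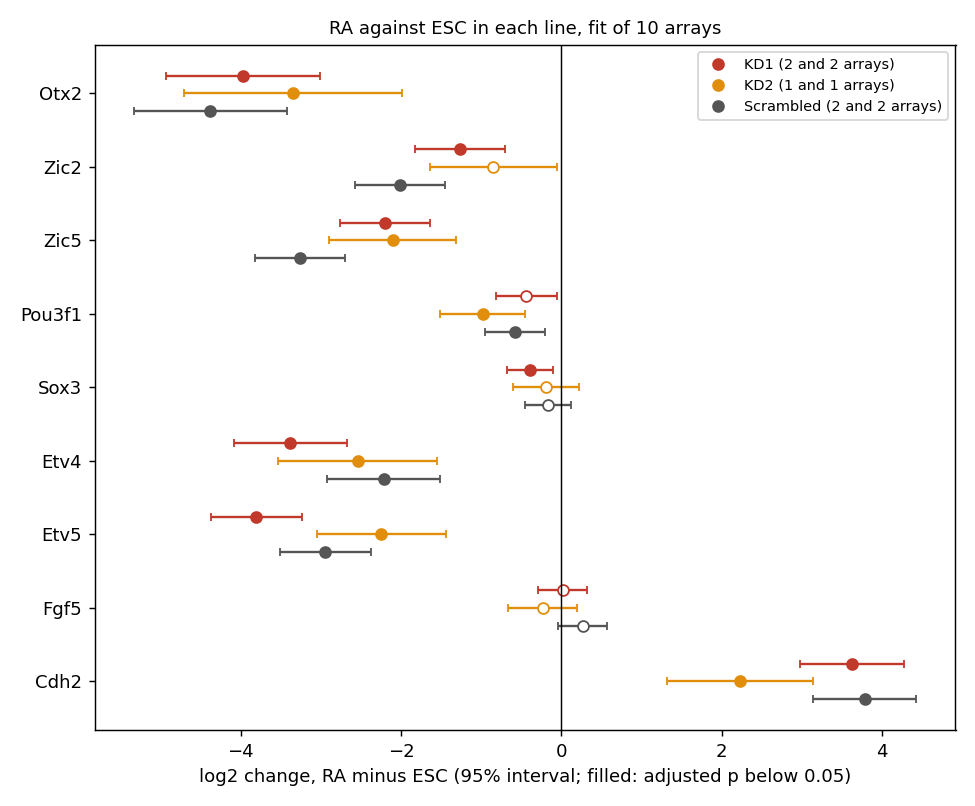
Log2 change of each gene in RA relative to ESC (horizontal axis) for KD1, KD2 and Scrambled, from the 10 arrays that matched their labels; bars are 95% intervals of the limma fit. Otx2, Zic5, Etv4 and Etv5 lie left of 0 in all 3 lines, Cdh2 lies right of 0, from 2.23 in KD2 to 3.79 in Scrambled, and the intervals of Fgf5 include 0.

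Other genes of the same states were counted beside the 9. Over all genes 20.8% fell and 21.8% rose in the control line on 10 arrays, and 20.8% fell and 20.3% rose in KD1. Of 17 measured further formative and primed genes, 11 fell and 2 rose in RA Scrambled relative to ESC Scrambled on 10 arrays, with a median of -1.81. Those that fell included Tdgf1, the NODAL co-receptor (-3.98, SE 0.37), Utf1, a chromatin factor of pluripotent cells (-3.00, SE 0.33), Foxd3, a forkhead factor (-2.70, SE 0.23), and Lefty2, a NODAL antagonist (-2.50, SE 0.28). Tead2, a partner of YAP (1.25, SE 0.11), and Sall2, a zinc-finger factor (0.86, SE 0.20), rose. In KD1 10 fell and 3 rose. In KD2, with 1 array per state, their median was -1.26, against 0.01 over all genes. Of 14 naive genes, 12 fell in KD1 and 13 in Scrambled. Their medians were -2.80 in KD1, -2.02 in KD2 and -2.80 in Scrambled. Of 7 core pluripotency genes, 6 fell in KD1 and 7 in Scrambled, and their median in KD2 was -2.41. Tdgf1 and Utf1 stand in both the formative and the core list.

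Genes of FGF and ERK signalling, which acts upstream of Etv4 and Etv5, went both ways. Of 15 measured, 3 fell and 6 rose in the control line, where 20.8% of all genes fell and 21.8% rose. The count that fell was thus near the share over all genes. Spry4, a feedback inhibitor of the pathway (-3.84, SE 0.32), Fgf4, the main FGF ligand of stem cells (-3.26, SE 0.14), and Spry2, another feedback inhibitor (-1.32, SE 0.22), fell. The receptor Fgfr2 (2.00, SE 0.16), the ETS factor Ets1 (1.83, SE 0.18) and the inhibitor Spry1 (1.31, SE 0.12) rose. In KD1 8 fell and 2 rose, where 20.8% of all genes fell and 20.3% rose. Of 14 relatives of the 9 genes, 4 fell and 3 rose in the control line, near the shares of 20.8% and 21.8% over all genes. This list shares Etv1 and Fgf4 with the FGF list, Fgf8 with the formative list and Sox2 with the core list. It also shares Sox1, Zic1 and Zic4 with the neural list below. Sox2, the SOXB1 factor of stem cells, fell (-2.70, SE 0.25), as did Cdh1, which encodes E-cadherin (-0.59, SE 0.09). Zic1 (0.73, SE 0.12) and Cdh3, which encodes P-cadherin (0.57, SE 0.15), rose.

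Because Cdh2 is expressed in several cell types, markers of those types were set beside it. Of 20 measured neural plate and neuron genes, 6 rose and 5 fell in the control line, among them Nes, an intermediate filament of progenitors (2.02, SE 0.25), and Elavl3, a neuronal RNA-binding protein (-1.17, SE 0.18). In this comparison 21.8% of all genes rose and 20.8% fell on 10 arrays, so the neural counts lay near those shares. Of 19 mesenchyme and fibroblast genes, 17 rose and 1 fell, among them Cdh11 (5.22, SE 0.27) and Dcn (5.19, SE 0.14). Of 15 measured extraembryonic endoderm genes, 12 rose and 1 fell, among them Gata6 (4.67, SE 0.11) and Dab2 (3.99, SE 0.11). Pdgfra stands in both the mesenchyme and the endoderm list. The summed linear intensity of the mesenchyme list was 31036 and 31766 in RA Scrambled, against 14706 and 16403 in ESC Scrambled. For the endoderm list it was 15123 and 16375, against 3812 and 4204, and for the neural list 5496 and 5886, against 4549 and 4861. The part of these cell types in the Cdh2 rise was not tested.

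Before differentiation, the KD1 arrays read lower than the control arrays for Zic2 and for the brighter Zic5 set, and these calls depended on ESC KD1 replicate 1. On 10 arrays Zic2 fell by 1.62 in ESC KD1 relative to ESC Scrambled, to 32.5% (SE 0.25, adjusted p = 0.0141), and Zic5 fell by 1.67, to 31.5% (SE 0.25, adjusted p = 0.0128, both limma). Both KD1 arrays lay below both control arrays for each gene. By the dimmer Zic5 set the difference was -0.39 and was not called (adjusted p = 0.168). These were 2 genes that fell and 0 that rose of 9, where 1.92% of all genes were called (1.08% fell, 0.843% rose). Neither call held without ESC KD1 replicate 1, the lower KD1 array for both (Zic2 -1.27, adjusted p = 0.068, and Zic5 -1.47, adjusted p = 0.087). On 12 arrays 0 of the 9 were called by limma, 1 at an unadjusted p below 0.05, where 0.0652% of all genes were called. The other genes were not called on 10 arrays, with values of -0.86 for Otx2 (adjusted p = 0.368), 0.87 for Etv4 (adjusted p = 0.226), -0.71 for Cdh2 (adjusted p = 0.275) and -0.43 for Fgf5 (adjusted p = 0.172). Etv5, Pou3f1 and Sox3 differed by -0.11, -0.03 and 0.19. With the replicate number as a block within each state, 6 of the 9 passed in limma on 10 arrays. Otx2 (adjusted p = 0.0083), Fgf5 (adjusted p = 0.0415) and Cdh2 (adjusted p = 0.00559) fell with Zic2 and Zic5, and Etv4 rose (adjusted p = 0.0212). The share of all genes called with the block was not counted, and the block left fewer residual degrees of freedom.

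For KD2 in the stem cell state only replicate 1 remained on 10 arrays. With that array alone, 0 of the 9 genes were called by limma on 10 arrays and 5 at an unadjusted p below 0.05, where 0.988% of all genes were called. Cdh2 was 1.52 higher (SE 0.35, adjusted p = 0.097), and it passed with the replicate block (1.16, adjusted p = 0.00397) or without ESC Scrambled replicate 1 (1.97, adjusted p = 0.0117). Pou3f1 was 0.70 higher (SE 0.20, adjusted p = 0.196), and Zic2 and Zic5 were 0.74 and 0.71 lower (adjusted p = 0.378 and 0.4). Otx2, Etv4, Fgf5, Etv5 and Sox3 differed by -0.95, 0.88, 0.14, -0.05 and 0.02. On 12 arrays 0 were called, 2 at an unadjusted p below 0.05, where 0.0853% of all genes were called. KD1 and KD2 were set against the same control arrays. The replicate block shifted the ESC KD2 values by a replicate difference taken from Scrambled and KD1 alone. Cdh2 moved from 1.52 to 1.16 and Otx2 from -0.95 to -0.37, while Fgf5 moved from 0.14 to 0.16.

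After retinoic acid, the KD1 arrays read lower than the control arrays for Fgf5 and Etv5, and these calls depended on single arrays. Fgf5 also read lower in ESC KD1 relative to ESC Scrambled (-0.43, not called without the block). On 10 arrays Fgf5 fell by 0.68 in RA KD1 relative to RA Scrambled, to 62.5% (SE 0.13, adjusted p = 0.0122), and Etv5 fell by 0.98, to 50.8% (SE 0.25, adjusted p = 0.0359, both limma). These were 2 of 9, where 12.1% of all genes were called (6.69% fell, 5.39% rose). Zic2 (-0.88, adjusted p = 0.0522), Cdh2 (-0.87, adjusted p = 0.0909), Zic5 (-0.61, adjusted p = 0.173) and Otx2 (-0.45, adjusted p = 0.601) were not called, although both KD1 arrays lay below both control arrays for each. Etv4, Pou3f1 and Sox3 differed by -0.30, 0.12 and -0.03, and their arrays overlapped. With the replicate block in limma on 10 arrays 5 fell, the additions being Zic2 (adjusted p = 0.00139), Zic5 (adjusted p = 0.00544) and Cdh2 (adjusted p = 0.000612). How many of all genes passed with the block was not counted, and fewer residual degrees of freedom remained. By the dimmer set Zic5 differed by -0.13 without the block (adjusted p = 0.620, limma on 10 arrays). Single libraries moved the count: 0 passed without RA Scrambled replicate 2 or without RA KD1 replicate 2, 1 without RA KD1 replicate 1, 3 without either ESC KD1 array, and 4 without either ESC Scrambled array. On 12 arrays 0 of 9 were called by limma, 1 at an unadjusted p below 0.05, where 2.32% of all genes were called. In RA KD2 0 of 9 were called by limma on 10 arrays, 0 at an unadjusted p below 0.05, where 0.963% of all genes were called. That array differed from the control by 0.65 for Etv5, 0.55 for Etv4, 0.44 for Zic5, 0.42 for Zic2, 0.30 for Pou3f1, 0.08 for Otx2, -0.001 for Sox3, -0.04 for Cdh2 and -0.36 for Fgf5. On 12 arrays RA KD2 again gave 0, with 2 at an unadjusted p below 0.05, where 0.271% were called, and 3 passed without RA KD2 replicate 1, which leaves KD2 to the oppositely placed library.

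**Figure D3:**
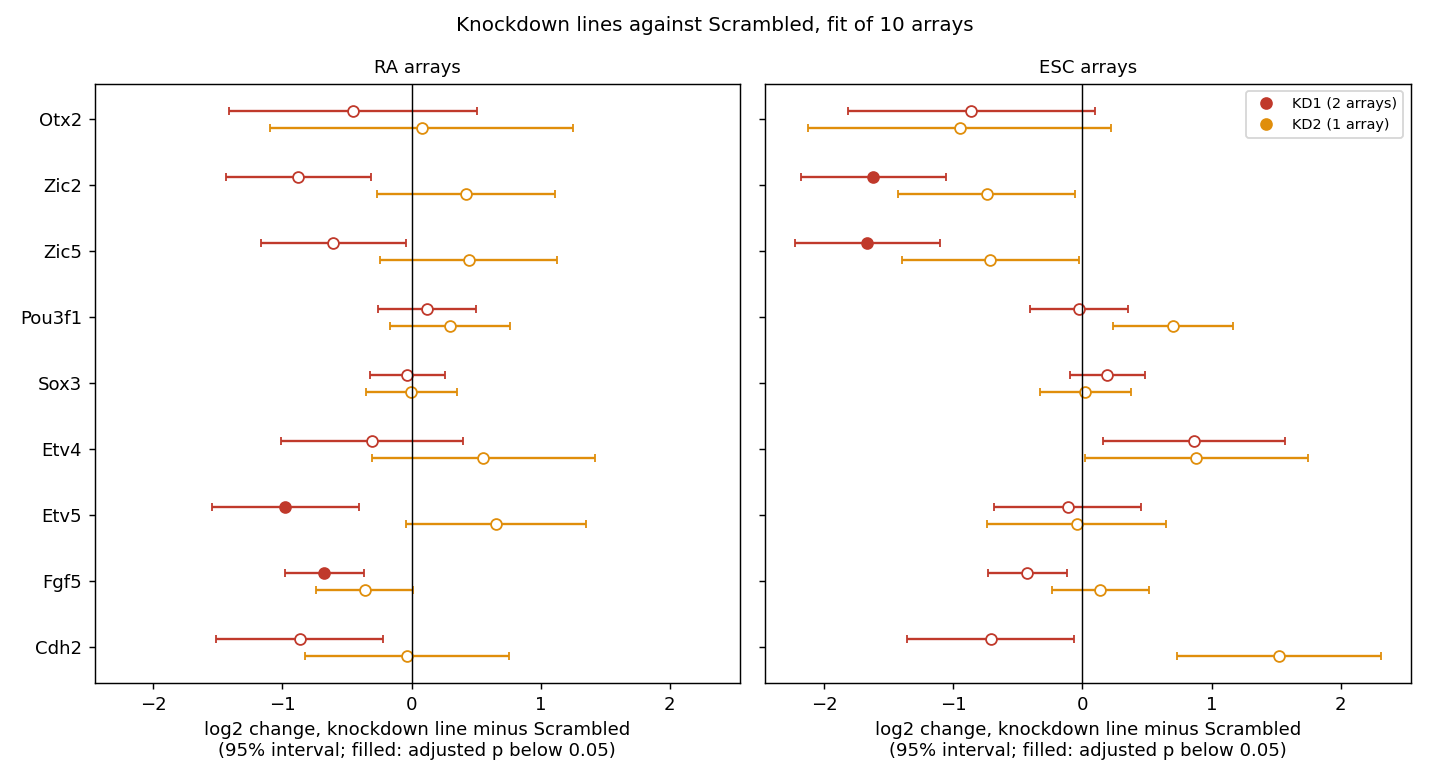
Log2 change of each gene in KD1 and KD2 relative to Scrambled (horizontal axis), in RA and in ESC, from the 10 arrays that matched their labels; bars are 95% intervals of the limma fit and filled points are called. KD1 lies at -1.62 for Zic2 and -1.67 for Zic5 in ESC, Fgf5 in KD1 lies left of 0 in both states, and KD2 Cdh2 lies at 1.52 in ESC and -0.04 in RA.

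Whether the knockdown difference itself changed with the state was tested as an interaction. With KD1, 0 of 9 genes were called by limma on 10 arrays, 3 at an unadjusted p below 0.05, where 4.82% of all genes were called. The values were 1.06 for Zic5 (adjusted p = 0.145), -1.17 for Etv4 (adjusted p = 0.202) and -0.86 for Etv5 (adjusted p = 0.247). With the replicate block 3 passed, Zic5 (adjusted p = 0.00325) and Zic2 (0.74, adjusted p = 0.0311) in the positive direction and Etv4 (adjusted p = 0.0189) in the negative. All Zic5 interaction values except the following are from its brighter set. By the dimmer set the KD1 interaction was 0.27 (adjusted p = 0.493, limma on 10 arrays) and the KD2 interaction 0.33. The block was not fitted to the dimmer set, and the share of all genes called with the block was not counted. Without ESC Scrambled replicate 1 Zic5 (1.41, adjusted p = 0.0235) and Etv4 (-1.57, adjusted p = 0.0485) passed. With KD2 0 were called on 10 arrays, 3 at an unadjusted p below 0.05, where 0.351% of all genes were called, and Cdh2 had the value of largest size (-1.56, adjusted p = 0.319). Cdh2 passed without ESC Scrambled replicate 1 (-2.01, adjusted p = 0.0477) or with the block (-1.29, adjusted p = 0.0172), which also called Zic5 (1.02, adjusted p = 0.0466). On 12 arrays 0 were called in either interaction, and 0 (KD1) and 5 (KD2) stood at an unadjusted p below 0.05, where 0.261% and 0.0201% of all genes were called. The KD2 count was 6 without ESC KD2 replicate 1 and 5 without RA KD2 replicate 1, each of which leaves an oppositely placed library alone in its group.

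Related genes were counted in the same KD1 comparisons on 10 arrays. Over all genes 1.08% fell and 0.843% rose in ESC KD1, and 6.69% fell and 5.39% rose in RA KD1. Of 17 further formative and primed genes, 2 fell in ESC KD1: Lef1, a WNT effector (-1.21, SE 0.11), and Dnmt3a, a DNA methyltransferase (-0.82, SE 0.16). In RA KD1 5 fell, among them Nodal, the ligand that sustains the primed state (-1.11, SE 0.16), Dnmt3a (-0.91, SE 0.16) and Lef1 (-0.65, SE 0.11), while Dnmt3b rose (1.20, SE 0.29). Of 15 FGF and ERK genes, Spry2 rose in ESC KD1 (1.44, SE 0.22). In RA KD1 8 fell and 1 rose: Etv1, the third member of the ETV4 and ETV5 subfamily, fell by 2.16 (SE 0.29), Spry1 by 1.53 (SE 0.12), the inhibitor Il17rd by 1.10 (SE 0.13) and Fgf4 by 0.82 (SE 0.14), and Spry2 rose (1.32, SE 0.22). Extraembryonic endoderm genes moved in the same comparison: 13 of 15 rose and 0 fell, with a summed linear intensity of 66554 and 70196 in RA KD1, against 15123 and 16375 in RA Scrambled. Of 7 core pluripotency genes 3 rose in RA KD1 and 0 fell, among them L1td1 (1.19, SE 0.23) and Lin28a (1.13, SE 0.13). Of 14 naive genes 5 rose, among them Klf4 (1.5, SE 0.13) and Klf5 (1.38, SE 0.18), and 2 fell, Nanog (-1.35, SE 0.29) and Dppa3 (-0.85, SE 0.19). For the endoderm genes in ESC KD1, 5 of 15 rose, with 5640 and 5715 against 3812 and 4204 in ESC Scrambled. In ESC KD2 replicate 1 the sum of the endoderm list was 7230. Mesenchyme genes fell in 8 and rose in 2 of 19 in RA KD1, with 28171 and 29185 against 31036 and 31766. The part of these cells in the Zic2, Zic5, Etv5, Fgf5 and Cdh2 values was not tested.

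Both probe sets were compared for the genes with more than 1. The other Etv5 set, 10438626, gave similar changes where the brighter set was called, with -2.74 in RA Scrambled relative to ESC Scrambled and -1.0 in RA KD1 relative to RA Scrambled (adjusted p = 0.0264, limma on 10 arrays). The other Zic5 set, 10422504, was also lower in RA, over a smaller range. It read 8.02 and 7.90 in RA KD1, 7.97 in RA KD2 replicate 1, and 8.03 and 8.14 in RA Scrambled, against 8.38 and 8.41 in ESC KD1, 8.34 in ESC KD2 replicate 1, and 8.71 and 8.87 in ESC Scrambled. By that set Zic5 fell by 0.70 in RA Scrambled (adjusted p = 0.00149) and by 0.44 in RA KD1 (adjusted p = 0.0191), each relative to ESC. Neither -0.37 in RA KD2 relative to ESC KD2 nor -0.39 in ESC KD1 relative to ESC Scrambled (adjusted p = 0.168, limma) was called by it. In those comparisons the Zic5 call thus rested on the brighter set. The genomic targets of the probe sets are not given in the sources used here. All 10 annotated probe sets nearest in number to the brighter Zic5 set belong to genes on chromosome 11, and all 10 nearest to the brighter Etv5 set to genes on chromosome 10. For the other Zic5 and Etv5 sets, 9 and 10 of the 10 nearest lie on the gene's own chromosome.

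**Figure D4:**
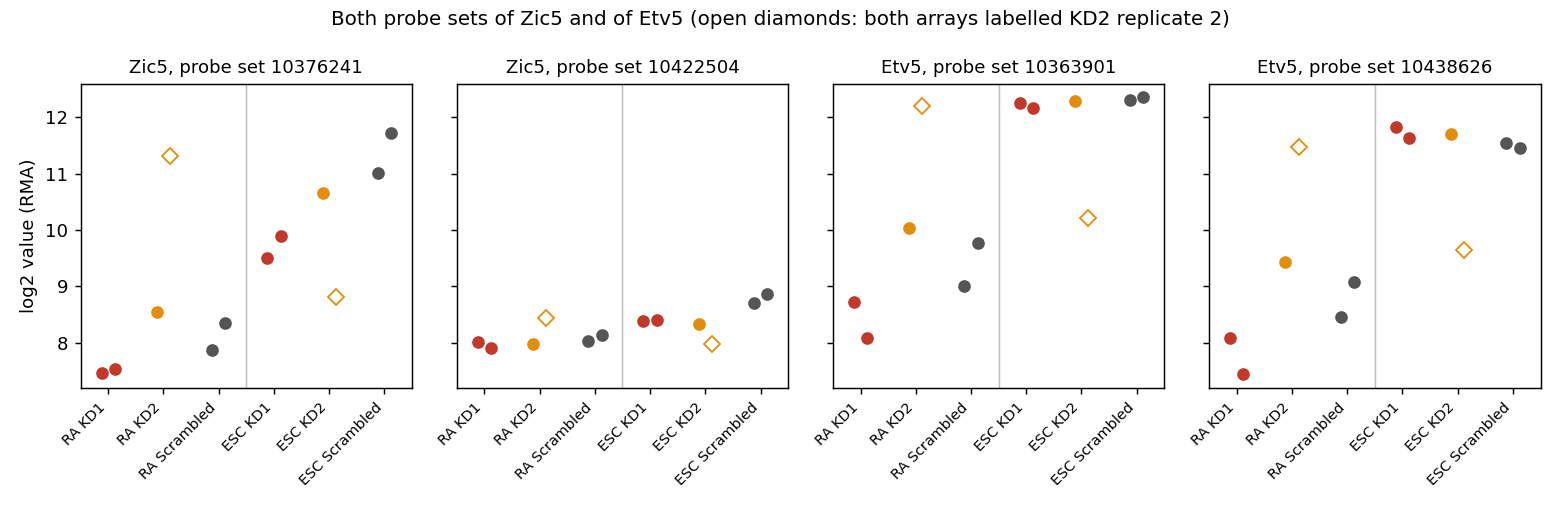
Log2 intensity (vertical axis) of both probe sets of Zic5 and both of Etv5 on each array, grouped along the horizontal axis by state and line; open diamonds are the libraries labelled KD2 replicate 2. The brighter Zic5 set falls to 7.46 to 8.55 in RA against 9.50 to 11.72 in ESC, the other Zic5 set spans less than 1 log2 unit, and both Etv5 sets are lower in RA than in ESC and lowest in RA KD1.

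Genes most like each of the 9 were listed by Pearson correlation over the 12 arrays, among 12410 other genes. The arrays form an RA and an ESC cluster, so that these values mostly describe the difference between states. Etv5 was most like Tdgf1 (0.998), then Gdf3 and Stmn2, and Etv4 like Spout1 (0.995), Tcf15 and Mrps2. Otx2 was most like Rab25 (0.994), Fetub and Tsx, Cdh2 like Parp8 (0.993), Acp2 and Dctn4, and Zic5 like Rpl36a (0.990), St8sia1 and Elavl2. For Otx2, Etv4, Etv5 and Cdh2 between 312 and 427 genes reached 0.95, and 93 did for Zic5. Zic2, Pou3f1 and Sox3 had 5, 6 and 2 such genes, and their closest were Slc4a8 (0.968), St8sia1 and Gabpb1 for Zic2, Ltb (0.975), Rfng and Mmp25 for Pou3f1, and Ccm2l (0.968), Vwa3b and Ckm for Sox3. Fgf5 had 0, and its closest were Ugt8a (0.870), Aptx and Cdc42ep3.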

How the data were processed

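RNA from 12 samples of R1 mouse embryonic stem cells, 300 ng of total RNA each, was measured on 1-colour Affymetrix arrays per the labels' protocols. The values deposited by the authors are on the log2 scale and come from RMA (version not given), per the submitters' processing notes. RMA corrects background, normalizes between arrays and summarises probes; it compresses changes of dim probe sets. The table holds 35556 probe sets. The platform annotation lists 23410 of them, 21789 with 1 symbol, and the brightest such set per gene gave 19938 genes. Groups came from the sample titles.

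Limma 3.58.1 (R 4.3.3) fitted 6 group means with an intensity trend to the 12 arrays (6 residual and 2.76 prior degrees of freedom), and again to 10 arrays without the pair that resembled the opposite state (4 and 4.93). Benjamini-Hochberg adjustment ran over all genes. The comparisons were RA against ESC in each line, each knockdown against Scrambled in each state, and the interactions. No filter on dim probe sets was used, and all 9 genes also passed the filter tried as an alternative. The number of arrays limits precision. The 9 genes and all lists were chosen with earlier results of these data known, so agreement with general knowledge is no independent evidence. The genes named were the 9, the 3 genes most correlated with each over 12 arrays (1 symbol, highest group mean not under the median of all values, predicted genes left out), and up to 4 called genes each way with the largest changes per list.

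Replicate numbers are given by the labels with no shared day. Replicate differences correlated within each state (0.141 to 0.633 over 6 pairs of groups) and lay between -0.864 and 0.105 over the 9 pairs between states, so a block by number within each state was fitted as an alternative. The value of -0.864 is between ESC KD2 and RA KD2, whose replicate differences hold the oppositely placed arrays. The within-state pairs free of those arrays read 0.633 (ESC Scrambled with ESC KD1) and 0.150 (RA Scrambled with RA KD1). The ground for a block was thus weak in RA. The block also left fewer residual degrees of freedom than the fit without it, so its small adjusted p-values rest on a less well estimated spread. With the oppositely placed arrays left out, KD2 kept a single array per state. Blocked KD2 values were then shifted by replicate differences taken from Scrambled and KD1 alone. Promoters came from RefSeq on GRCm38.p6, and figures were drawn with matplotlib 3.10.9.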

Additional observations from a re-analysis of the deposited data

How the results depend on the processing

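Leaving out the oppositely placed pair moved the number of the 9 genes called from 3 to 7 (RA against ESC in Scrambled), 2 to 7 (KD1), 0 to 6 (KD2), 0 to 2 (ESC KD1 against Scrambled) and 0 to 2 (RA KD1). It turned the direction of RA KD2 against ESC KD2 for Otx2 (-3.35), Zic5 (-2.10) and Cdh2 (2.23). The replicate block gave 5 calls for Scrambled on 12 arrays, and with the block on 10 arrays the counts were 7 for Scrambled, 8 for KD1, 7 for KD2, 6 for ESC KD1, 1 for ESC KD2, 5 for RA KD1, 3 for the KD1 interaction and 2 for the KD2 interaction. With it RA KD2 against ESC KD2 was -3.91 for Otx2, -1.04 for Zic2, -2.24 for Zic5 and 2.50 for Cdh2. No share of all genes was counted for the block. Leaving out dim genes gave 5 calls for Scrambled on 12 arrays, and the other Zic5 and Etv5 sets gave 1 for ESC KD1 on 10 arrays. Leaving out single replicates gave, on 12 arrays, 0 to 6 calls for Scrambled and for KD1, 0 to 3 for RA KD2 (3 without RA KD2 replicate 1), 0 to 6 for the KD2 interaction (6 without ESC KD2 replicate 1) and 0 for the other 5 comparisons. On 10 arrays it gave 6 to 7 for Scrambled and for KD1, 6 for KD2, 0 to 3 for ESC KD1, 0 to 1 for ESC KD2, 0 to 4 for RA KD1, 0 for RA KD2, 0 to 2 for the KD1 interaction and 0 to 1 for the KD2 interaction. The causes were not tested, beside the fewer arrays that leaving out replicates fits. No intensity trend and averaging probe sets (on 12 and on 10 arrays) and repeated quantile normalization and centring on medians (on 12 only) moved no count by over 1.5 times. The other probe sets, and the trend, filter, averaging and single-replicate alternatives on the 10 arrays, were added after the data were seen.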
